A study of Mus musculus with 9 samples.

Results

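Open chromatin was examined at 10 mouse genes that sense, make or degrade retinoic acid: the receptor genes Rara, Rarb, Rarg, Rxra, Rxrb and Rxrg, the synthesis gene Aldh1a2, and the degradation genes Cyp26a1, Cyp26b1 and Cyp26c1. They were chosen by name, and a gene's accessible regions were the distinct regions of the control ATAC-Seq list that carry its symbol. This gave 9 of 17164 regions, which belonged to Rarb (7), Rarg (1) and Rxrg (1), and the other 7 genes had no assigned region. The question of the study was how chromatin opening in the developing heart depends on Isl1, a LIM-homeodomain transcription factor, and on Brg1, the ATPase of a chromatin remodeling complex. ATAC-Seq, in which the Tn5 transposase cuts and tags accessible DNA, was applied to pharyngeal mesoderm and heart dissected from E8.75 embryos with 6 somites. The 9 libraries comprised 3 of genotype wt (control), 3 of genotype Isl1-/- and 3 of genotype Isl1Cre+/-/ Brg1fl/fl, in which Cre driven from the Isl1 gene limits the deletion to cells that express or have expressed Isl1. The libraries of both mutant genotypes were not analysed here, so no comparison between genotypes was made.

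The control list held regions present in all 3 control libraries, with positions in mm9, a distance to an assigned start, a RefSeq transcript and a symbol. It held no signal height and no value for each library, so depth is unknown, no replicate error could be given, and no test was run. A gene without a region was therefore not shown to be closed, since a region had to be called in each of the 3 libraries. The tissue was mixed, and openness in few cells cannot be told apart from weak openness in many. An assigned region was present for 49.3% of all protein-coding genes. Of the 8 second heart field and heart markers, 6 had one, led by Isl1 with 9, while Nkx2-5 and Tbx1 had none. Regions were also assigned to 4 of 4 neural markers, 3 of 4 endothelial markers and 1 of 4 blood markers. Within 1 kb of the assigned start, a region was present for 5 heart, 2 neural, 1 endothelial and 0 blood markers. An open region near a marker is not its expression.

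Retinoic acid is made from retinaldehyde by ALDH1A enzymes, of which ALDH1A2 is the main one in the early embryonic mesoderm, and is removed by the CYP26 cytochrome P450 enzymes. It binds retinoic acid receptors (RARs), which sit on DNA as heterodimers with retinoid X receptors (RXRs) at direct repeats of a 6-base half-site, classically spaced by 5 bases. In the embryo, retinoic acid sets the posterior limit of the second heart field and patterns the inflow of the heart, and both Rarb and Cyp26a1 are textbook direct targets of the pathway they serve.

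The sequences that carry this account are those directly before the starts of Rarb, Rxrg and Cyp26a1, and the centre of the Rarg region. They are given 5′ to 3′ on the strand of the gene, from the NCBIM37 assembly, which is the same build as mm9. Capitals mark a direct repeat with 5 bases between its half-sites (DR5), where a half-site was A or G, then G, then G or T, then T, then C or G, then A. The Rarb, Rxrg and Rarg stretches lay wholly inside an accessible region, and 0 of the 200 bases before the Cyp26a1 start did.
Rarb, 200 bases before the start at 17407986, chr14:17407987-17408186, minus strand: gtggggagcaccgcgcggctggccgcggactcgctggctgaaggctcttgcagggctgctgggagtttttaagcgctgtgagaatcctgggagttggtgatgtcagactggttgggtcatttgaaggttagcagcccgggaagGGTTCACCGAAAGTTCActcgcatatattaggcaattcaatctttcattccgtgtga
Rarg, central 300 bases of the region, chr15:102077398-102077697, minus strand: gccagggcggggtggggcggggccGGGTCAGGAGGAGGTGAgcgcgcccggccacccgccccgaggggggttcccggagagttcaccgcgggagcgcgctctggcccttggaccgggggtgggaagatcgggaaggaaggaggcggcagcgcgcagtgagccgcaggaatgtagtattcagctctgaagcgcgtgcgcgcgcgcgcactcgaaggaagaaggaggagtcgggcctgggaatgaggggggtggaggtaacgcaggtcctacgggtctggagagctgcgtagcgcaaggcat
Rxrg, 200 bases before the start at 169528515, chr1:169528315-169528514, plus strand: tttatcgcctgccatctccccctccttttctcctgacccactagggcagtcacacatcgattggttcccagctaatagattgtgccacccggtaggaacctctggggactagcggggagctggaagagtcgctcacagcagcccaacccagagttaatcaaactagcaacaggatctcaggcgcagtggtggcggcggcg
Cyp26a1, 200 bases before the start, chr19:37772098-37772297, plus strand: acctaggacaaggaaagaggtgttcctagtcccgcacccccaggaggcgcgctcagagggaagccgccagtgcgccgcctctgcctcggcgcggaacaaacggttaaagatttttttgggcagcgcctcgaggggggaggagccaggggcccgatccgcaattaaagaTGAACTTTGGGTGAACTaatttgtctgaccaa

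Regions were assigned to 3 of the 6 receptor genes and to 0 of the 4 enzyme genes. The resulting share of 3 in 10 genes (30.0%) stood beside 49.3% of 21031 protein-coding genes with an assigned region. All 3 had a region within 1 kb of the assigned start, a property shared by 40.6% of protein-coding genes. Counted instead over every start in the GENCODE annotation, the same 3 genes had a region midpoint within 1 kb, beside 44.4% of 22225 annotated protein-coding genes. Of the 42 annotated starts of the 10 genes, which include starts of noncoding transcripts, 5 had a region midpoint within 1 kb. Several of these 5 were Rxrg starts under 1 region, and the share over all annotated starts was not computed. The listed regions of the group were therefore those of 1 gene with many regions and 2 with a single region each.

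**Figure D1:**
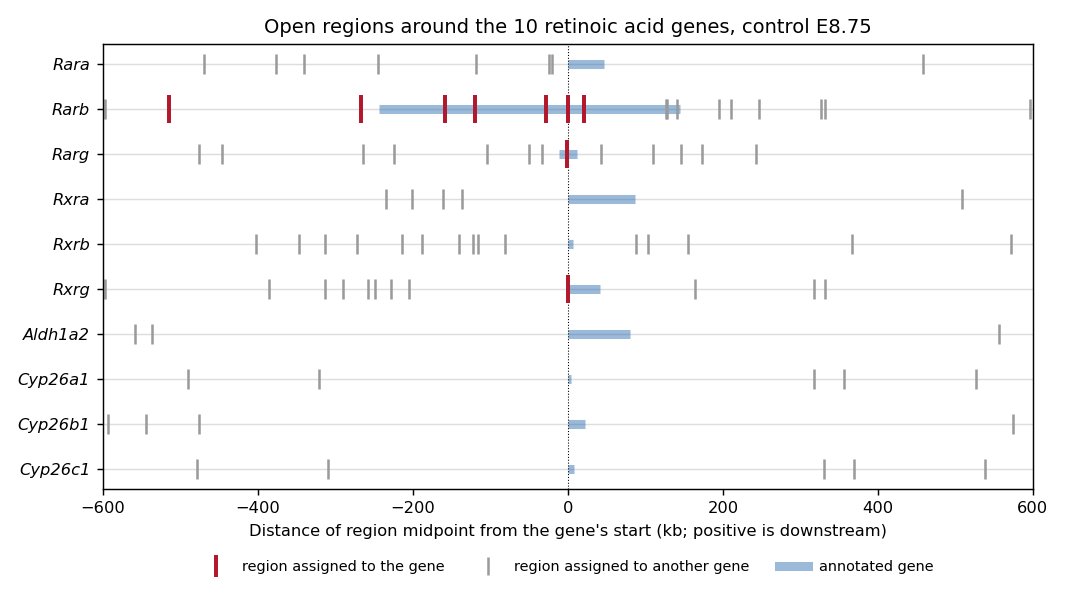
Midpoints of accessible regions around each gene, drawn by distance in kb from the start (for the 3 genes with a region, the start used in the list); red ticks are regions assigned to the gene, grey ticks regions assigned to another gene, and blue bars the annotated gene. Rarb carries 7 red ticks, Rarg and Rxrg 1 each, and Aldh1a2 and the 3 Cyp26 genes have no tick of either colour within 250 kb.

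Rarb encodes retinoic acid receptor beta, a receptor whose own transcription rises with retinoic acid. Its 7 regions placed it among the 0.39% of 21031 protein-coding genes with at least as many. Of the 11541 genes in the list, 0.806% had 7 or more regions and 73.2% had 1. The gene spans chr14:17263356-17651381 on the minus strand, 388026 bp in all, with annotated starts at 17407986 and 17651381. An accessible region of 1493 bp (chr14:17407205-17408697) covered the downstream start, with its midpoint 35 bp from it. The upstream start, used by 2 annotated transcripts, had no region within 1 kb, and the nearest one lay 23126 bp further upstream. Openness at a Rarb start was thus recorded at 1 of its 2 starts.

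Of the 6 other Rarb regions, 4 were intronic. They lay at chr14:17386501-17387711 (1211 bp wide), chr14:17435640-17436340 (701 bp), chr14:17527792-17528857 (1066 bp) and chr14:17565885-17566965 (1081 bp). The first was 20880 bp downstream of the open start, and the next 2 were 28004 and 120338 bp upstream of it, within the longer transcripts. The last of these lay 84956 bp downstream of the upstream start. The remaining 2 were intergenic, at chr14:17674074-17674940 (867 bp) and chr14:17922364-17923243 (880 bp), 23126 and 271422 bp beyond the upstream start. Together the 7 regions covered 7299 bp of a span of 536743 bp, with gaps between neighbours from 19493 to 247423 bp, so they did not form 1 tight cluster.

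The Rarb gene also contained 3 intronic regions that the list gave to the neighbouring gene Top2b, which encodes DNA topoisomerase II beta. These were chr14:17266800-17267396 (597 bp), chr14:17279781-17280494 (714 bp) and chr14:17280785-17281644 (860 bp), in the part of Rarb nearest to Top2b. With them, 8 regions had their midpoint inside the Rarb gene, a number reached by 26 of 22225 protein-coding genes (0.117%). Rarb is long, and long genes hold more regions. Among the 529 genes of at least 300 kb the median was 2 regions (quartiles 1 and 3), and 4.54% had 8 or more.

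The deposited distances of the Rarb regions pointed to 2 different starts. Distances of 5 regions placed the start at 17407990, 4 bp from the annotated one. Those of the 2 intergenic regions, 240338 and -7958 bp, placed it at 17914845, which is 263464 bp from any annotated Rarb start. The 1001 bp around each position shared 0 of 971 words of 31 bases. Why the list used the second position was not tested. In the whole list, 284 of 2661 transcripts with several regions (10.7%) gave starts more than 10 kb apart. The region at chr14:17922364-17923243 therefore counts as 1 to 10 kb from a start in the list and as far intergenic in the annotation.

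The Rarb start region was wider than each of the distal Rarb regions, which measured 701 to 1211 bp, whereas the Rxrg start region measured 968 bp. Across all regions, the median width was 1294 bp within 1 kb of the assigned start (quartiles 1084 and 1612.5), and 937 bp beyond 10 kb (quartiles 783 and 1122). The Rarb start region, at 1493 bp, was wider than 67.2% of regions within 1 kb. Of its distal regions, the intronic one at 20.9 kb was the widest and exceeded 82.1% of regions beyond 10 kb, and the one at -28.0 kb was the narrowest, with 5797 of the 6740 regions of that class at least as wide. The median of the 6 distal Rarb regions was 973 bp. Base composition followed the same division: the start region had 53.9% GC and 4.69 CpG per 100 bp, while the 6 others had 40.8 to 46.7% GC and 0.281 to 1.38 CpG per 100 bp, beside medians of 46.8% and 1.25 for all regions beyond 10 kb.

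**Figure D2:**
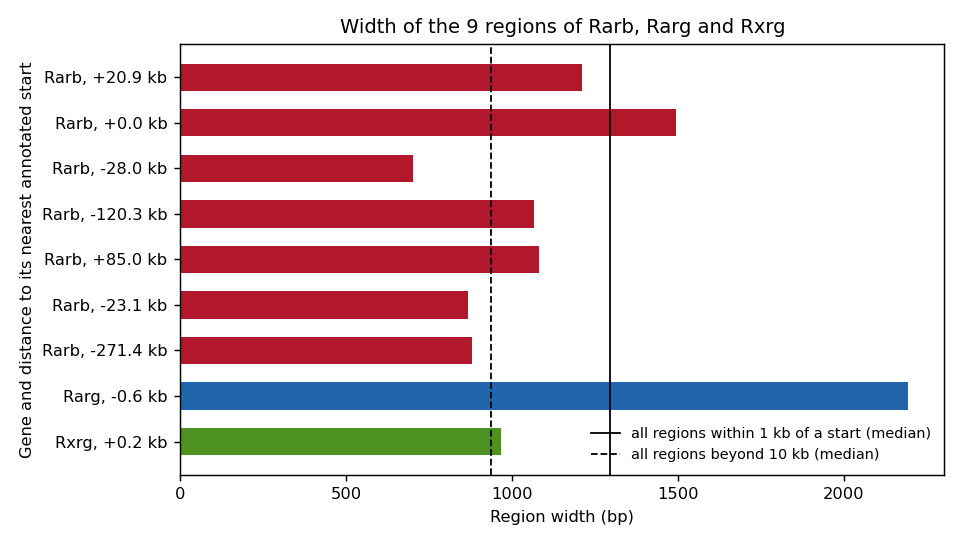
Width in bp of the 9 regions (bars), each named by its gene and the distance of its midpoint from that gene's nearest annotated start in kb, negative being upstream; vertical lines are the medians of all regions within 1 kb of a start (1294 bp, solid) and beyond 10 kb (937 bp, dashed). The Rarg region reaches 2194 bp, and the distal Rarb regions lie between 701 and 1211 bp.

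Rarg encodes retinoic acid receptor gamma, and its single region was the widest of the 9. It measured 2194 bp (chr15:102076451-102078644), more than 93.5% of regions within 1 kb of a start, and 593 of 9083 such regions were at least as wide. The gene lies on the minus strand at chr15:102065369-102087948 and has 3 coding starts. The region covered the most downstream of them, at 102076931, with its midpoint 616 bp upstream. Neither of the other coding starts, 10233 and 10401 bp further upstream than the midpoint, had a region, as in Rarb, where the start with the longest transcripts was also without one. The Rarg region was rich in GC (63.3%) and CpG (6.70 per 100 bp), against medians of 58.1% and 5.94 for regions within 1 kb.

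Rxrg encodes retinoid X receptor gamma, the partner that is most restricted in its expression. Its region of 968 bp (chr1:169528289-169529256) covered 3 clustered starts at 169528515, 169528591 and 169528611, from which the midpoint lay 257, 181 and 161 bp downstream. It was narrow for its class, with 13.6% of regions within 1 kb narrower, and had 55.4% GC and 4.34 CpG per 100 bp. Another start at 169548440, inside the gene, had no region, and the nearest midpoint was at -19668 bp relative to it. Each of the 3 receptor genes with a listed region thus had at least 1 annotated coding start without a region. How often this holds for other genes with several coding starts was not computed.

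The other receptors had no region, at differing distances from open chromatin. Rara (retinoic acid receptor alpha, chr11:98789132-98836256, plus strand) had its nearest region 20079 bp upstream of its first start, a 958-bp region assigned to the replication licensing gene Cdc6. For Rxrb (retinoid X receptor beta, chr17:34168757-34175338, plus strand) the nearest was 80437 bp upstream and assigned to B3galt4. For Rxra (retinoid X receptor alpha, chr2:27531960-27618477, plus strand) it was 136285 bp upstream and assigned to Wdr5. Of all annotated protein-coding genes, 40.1% were farther from a region than Rara, 19.4% than Rxrb and 12.3% than Rxra, and the median distance over all of them was 7044 bp.

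Aldh1a2 lay the farthest of the 10 genes from a listed region. Its start (chr9:71063596-71144050, plus strand) was 536672 bp from the nearest midpoint, upstream and assigned to Adam10, and 2.09% of protein-coding genes were farther. Aldh1a2 stood in a stretch of 1091252 bp without any region, together with 5 other protein-coding genes, among them Lipc and Aqp9. Stretches at least this long were 1.09% of the 17143 between neighbouring regions, whose median was 72839 bp, and held 5.63% of protein-coding genes.

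The 3 degradation genes were also far from listed regions. Cyp26b1 (chr6:84521938-84543740, minus strand) was 475723 bp from the nearest one, assigned to Exoc6b, and was the sole protein-coding gene with its start in a stretch of 1049349 bp. Cyp26c1 (chr19:37760071-37767888, plus strand) and Cyp26a1 (chr19:37772298-37776018, plus strand) are neighbours and shared 1 stretch of 638414 bp with Exoc6 and Hhex. The nearest region was 309331 bp from Cyp26c1, assigned to Kif11, and 317837 bp from Cyp26a1, assigned to Myof. Shares of 2.48%, 4.61% and 4.44% of protein-coding genes were farther than Cyp26b1, Cyp26c1 and Cyp26a1.

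Altogether 5 of the 10 genes (Rxra, Aldh1a2 and the 3 Cyp26 genes) had no region of any symbol within 100 kb of a start, beside 16.1% of all annotated protein-coding genes. Cyp26a1 and Cyp26c1 share a stretch and are not independent in this count. Within 250 kb of the start used for each gene, Rarb had 11 regions, Rarg 10, Rxrb 9, Rxrg 5, and Rara and Rxra 4 each. For Rarb this was the open start, and its 11 regions included the 6 assigned to Top2b. The upstream Rarb start, at 17651381, lay more than 250 kb from each of these 6, and the regions around it were not counted. Protein-coding genes had a median of 5 regions in such a window (quartiles 3 and 8), and 6.33% had 0, as did Aldh1a2 and the 3 Cyp26 genes. This division between enzymes and receptors holds for the 250 kb window and not for the length of the stretch without a region, since that of Rxra (643149 bp) was longer than that of Cyp26a1 and Cyp26c1.

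**Figure D3:**
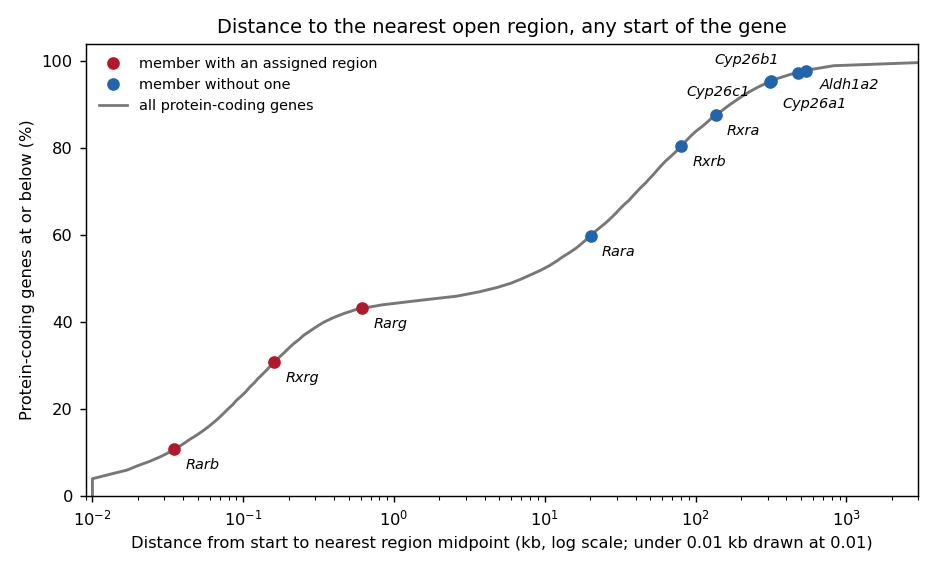
Cumulative share (%) of 22225 protein-coding genes by distance in kb (log axis) from any annotated start to the nearest region midpoint (grey line), with the 10 genes marked in red (region assigned) or blue (none). Rarb, Rxrg and Rarg lie at 35, 161 and 616 bp, and the 7 others at 20079 to 536672 bp.

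Starts rich in CpG were more often open in these embryos, so the CpG content of the 10 genes, at whichever annotated start was richest, was set beside that of all genes. A region lay within 1 kb of a start for 0.495% of genes in the lowest of 10 equal bins by CpG and 76.7% in the highest. Rxra (15.7 CpG per 100 bp), Rxrb (12.8) and Aldh1a2 (11.8) belonged to the highest bin and had no such region. Rara (7.49) and Cyp26a1 (7.19) belonged to a bin in which 71.3% of genes had one, and Cyp26b1 (6.69) to a bin with 70.9%. Rarb (6.39) and Rarg (6.09) were in the same bin as Cyp26b1, and Rxrg (4.50) was in a bin with 54.4%. The Rarb and Rxrg values are those of open starts, whereas the Rarg value is that of its start at 102087780, which had no region, and the open Rarg start had 5.20 CpG per 100 bp. Only Cyp26c1 (2.70), of the 7 genes without a region, was in a bin where fewer genes had a region than not (22.9%).

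**Figure D4:**
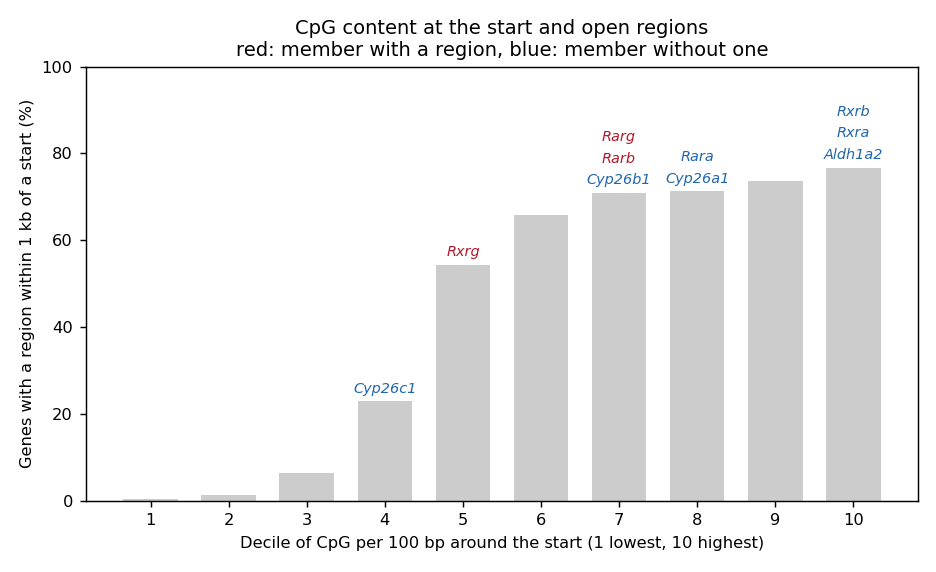
Share (%) of protein-coding genes with a region midpoint within 1 kb of a start (bars), by bin (decile) of CpG per 100 bp around the start, with the 10 genes written above their bin in red (region assigned) or blue (none). Of the 7 blue genes, 6 stand in bins 7 to 10, where 70.9 to 76.7% of genes have a region.

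Direct repeats of the retinoid half-site were searched on both strands in the central 300 bp of each region. A DR5 was found in 2 of the 9 regions, the start regions of Rarb and Rarg, beside 0.326% of all 17164 regions and 0.176% of those within 1 kb of a start. Repeats spaced by 1 base (DR1) or 2 bases (DR2) were in 0 of the 9, beside 0.635% and 0.344% of all regions. The distal Rarb regions and the Rxrg region held none of the 3 repeats, and the absence of these letters says nothing of receptor binding.

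The Rarb element lay at -49 bp relative to the open start, 84 bp from the midpoint of the region. It is the textbook retinoic acid response element of this promoter. The Rarg element lay at -734 bp relative to its start and 118 bp from the midpoint. Another DR5 stood at -24 bp relative to the Cyp26a1 start on the opposite strand, where the nearest listed region was 317837 bp away. These elements are compared here because they show the same spacing at starts that differed in listed openness, with the half-sites in capitals.
Rarb element, chr14:17408027-17408043, minus strand: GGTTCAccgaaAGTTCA
Cyp26a1 element, at -24 bp, minus strand: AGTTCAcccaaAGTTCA
Rarg element, chr15:102077657-102077673, minus strand: GGGTCAggaggAGGTGA
Counted from 1 at the 5′ end of the Rarb element, the Cyp26a1 element differed at 2 of 17 positions, G1A and G9C, of which 1 is in a half-site. The Rarg element differed from that of Rarb at 8 positions, 3 of them in half-sites, and among them was C16G. With C required at the fifth position of the half-site, the Rarg match was lost and that of Rarb was kept.

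In 32851 RefSeq promoters of assembly GRCm38.p6 (250 bases before to 50 after a start), a DR5 was found in 0.323%, a DR1 in 0.609% and a DR2 in 0.472%. Of the 17 promoters of the 10 genes, 2 held a DR5, those of Rarb and Cyp26a1, and 1 of Rxrg held a DR1. The Rxrg match belonged to the start at 169548440, which had no region. The exact 17 letters of the Rarb element were in 1 RefSeq promoter, that of Rarb itself, and those of the Cyp26a1 element were in 2, those of Cyp26a1 and Gm32342. A match to these letters is a description of sequence and not of binding.

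The letters CTAATG, a core that LIM-homeodomain factors such as Isl1 recognise, and AGATAA, which GATA factors recognise, were searched in the same windows. CTAATG was present in the centre of 1 of the 9 regions, the far intergenic Rarb region at chr14:17922364-17923243, beside 6.85% of all regions. The list places this region 1 to 10 kb from a start. Beyond 10 kb by the list's distances, 0 of 5 regions of the 10 genes held it, beside 809 of all 6740. AGATAA was in 2 of the 9, both distal Rarb regions in introns, beside 8.53% of all regions and 15.5% of those beyond 10 kb. The central 300 bases of these 2 intronic regions are shown, in lower case throughout since none of the direct repeats was found in them, on the strand of Rarb.
Rarb intron, 20880 bp downstream of the open start, chr14:17386957-17387256, minus strand: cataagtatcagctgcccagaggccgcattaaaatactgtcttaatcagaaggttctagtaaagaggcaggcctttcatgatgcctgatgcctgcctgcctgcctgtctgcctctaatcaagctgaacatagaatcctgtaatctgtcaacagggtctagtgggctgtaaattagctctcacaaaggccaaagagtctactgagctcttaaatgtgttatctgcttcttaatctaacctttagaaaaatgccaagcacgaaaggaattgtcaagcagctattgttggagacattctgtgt
Rarb intron, 120338 bp upstream of the open start, chr14:17528175-17528474, minus strand: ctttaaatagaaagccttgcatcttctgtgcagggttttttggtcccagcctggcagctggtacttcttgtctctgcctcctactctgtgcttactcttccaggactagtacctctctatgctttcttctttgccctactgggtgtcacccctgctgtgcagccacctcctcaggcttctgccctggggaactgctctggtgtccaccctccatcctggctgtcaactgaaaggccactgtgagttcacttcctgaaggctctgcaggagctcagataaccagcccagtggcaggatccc

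Other genes of the pathway were counted from 5 lists. Together 21 of 41 genes (51.2%) had a region, close to the 49.3% of protein-coding genes, with a median of 1 region. One within 1 kb of the assigned start was present for 15 of the 41, beside 40.6% of protein-coding genes. In uptake, synthesis and storage, 3 of 7 genes had one: Rdh10, which makes retinaldehyde from retinol, had 5 regions, Dhrs3, which reverses that step, had 4, and Lrat, which esterifies retinol, had 1. Stra6, Aldh1a1, Aldh1a3 and Bcmo1 had none, so that none of the ALDH1A genes counted here, Aldh1a2 included, had a region. Of the 4 binding protein genes, Crabp1 had 1 region, and those without one included Rbp4 and Crabp2.

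Genes for proteins that work with the receptors, and known targets, were counted in the same way beside the 49.3% of protein-coding genes. Of the 9 cofactor genes 6 had a region (66.7%), led by the corepressor gene Nrip1 with 4, and Ncor1, Ncoa1 and Ep300 had none. Of the 11 genes for other RXR partners 7 had one (63.6%), led by the thyroid hormone receptor gene Thrb with 6, and Ppard, Thra, Vdr and Nr1h4 had none. Among 10 known targets of retinoic acid, 4 had a region (40.0%), but these 4 held 31 regions in all. Nr2f1 had 13 and Nr2f2 9, both encoding COUP-TF orphan receptors, and none of these lay within 1 kb of the assigned start. Meis2 and Meis1 had 5 and 4. A region within 1 kb of the assigned start was present for 2 of the 10 targets. The targets without a region included Hoxb1, Hoxb4, Hoxd4, Cdx1 and Stra8.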

How the data were processed

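The authors profiled accessible chromatin of pharyngeal mesoderm and heart at E8.75 by ATAC-Seq, and groups follow the labelled genotype. According to the study's methods, the authors aligned to mm9 (bowtie2), filtered for proper pairs (samtools), removed duplicates with Picard 1.136, called peaks with MACS14 using a fixed shift and no model, removed blacklisted peaks, and used bedtools 2.15 to keep regions shared by the replicates (minimum overlap 1 bp). The deposited columns are positions and a distance in bp, a RefSeq transcript and a symbol. The tool that assigned genes to these regions is not given in the sources used here. The effect of the fixed shift on width was not tested, no Tn5 offset is stated, and coordinates are those of 1 library.

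Positions were read as 1-based and closed, and 17432 rows gave 17164 distinct regions, with no repeated row for the 10 genes. No value column was left unmapped (0 columns). Gene structure and sequence came from NCBIM37 with GENCODE vM1, and protein-coding status and promoters from RefSeq tables of GRCm38.p6. Of the 11541 genes, 11161 were matched by accession, 359 by symbol, 15 by synonym and 6 not at all. CpG was counted within 500 bp of each start, taking the highest start of a gene. No test was run, since 1 list without replicate values gives no error. Named were the 10 genes with every region, of each pathway list the genes with the most regions and those without one, and neighbours that carry nearby regions. The results of 2 genes that this rule would name are not reported here, and they remain in the counts. Further genes (Dhrs3, Lrat, Nr2f2, Meis1, Meis2 and the genes in stretches without a region) were named after their values were seen, as were the descriptions by CpG, stretch length, gene body and assigned start. The 10 genes and the lists were chosen with earlier results of these data known. Alternatives were the regions counted, the rule that gives a region to a gene, the distance that counts as a start, and the half-site. Counting was tested on simulated data. Python 3.11.15, numpy 2.4.6, pandas 2.3.3 and matplotlib 3.10.9 were used.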

Additional observations from a re-analysis of the deposited data

How the results depend on the processing

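Of 18 alternative values, 13 stayed within 1.5 times the reported value or, for widths, near the reported median. When any region in a gene or within 100 kb of it was counted, whatever its symbol, 5 of the 10 genes had one (Rara and Rxrb were added) and the regions rose from 9 to 23. When regions narrower than the median were dropped, 3 regions in 2 genes were kept, and Rxrg was lost. Assignment to the nearest annotated coding start gave 10 regions in the same 3 genes. With 500 bp as the limit for a start, Rarg no longer counted and 2 genes did. Direct repeats fell from 2 regions to 1 with C required at the fifth position of the half-site (Rarb), and to 0 with the half-site AGGTCA. No paired analysis was possible because the 3 control libraries enter as 1 common list, and for the same reason no library could be left out. Depth is unknown, and it limits which regions reach the list: a gene without a region may be open below the level called in all 3 libraries.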

Other observations

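The region at chr14:18004421-18005852, 1432 bp wide and assigned to Pou5f1-rs6 in the list with a distance of 67064 bp, has a Rarb start as its nearest annotated coding start. Over the whole list, 76.2% of regions kept their symbol when given to the nearest annotated coding start. Rara shared its stretch of 477372 bp without a region with 12 other protein-coding genes, among them Smarce1, Top2a and Igfbp4, and Rxrb shared 166848 bp with 8 others, among them Ring1, Rps18 and Vps52. Rxra stood in 643149 bp with Col5a1 and Fcnb. No explanation of these stretches was tested.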
